A study of Mus musculus with 11 samples.

Results

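The cytosolic ribosomal protein genes are described here in mouse CD8+ T cells. Members were the protein-coding genes whose symbol is Rpsa or begins with Rps or Rpl followed by a number and optional letters or by p0 to p2, with pseudogenes excluded. The rule found 83 of the 55414 genes in the table, 32 of the small ribosomal subunit and 51 of the large subunit, and 6 matching symbols annotated as pseudogenes were left out. All groups were OT-I cells, whose transgenic receptor recognises a peptide of ovalbumin, taken at 12 h. Naive cells were untreated (n = 4 libraries), stimulated cells received the solvent DMSO with N4, a peptide that triggers the receptor (n = 4), and Torin cells received N4 and Torin, which blocks the mTOR kinase (n = 3). Values are listed in the order of replicate numbers 1 to 4, and 1, 3 and 4 for Torin. No source used here says how the mice or cultures relate to the replicate numbers, so p-values measure the spread between these libraries, which may be technical.

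Each cytosolic ribosome holds a small subunit, which reads the mRNA, and a large subunit, which joins amino acids. Most of their proteins are needed in single copy, so their mRNAs are usually made in step. Many of these mRNAs begin with a C followed by a run of pyrimidines, the terminal oligopyrimidine (TOP) tract, through which the mTOR pathway and the RNA-binding protein LARP1 control their translation and stability. Naive T cells are small and translate little, and activation by antigen enlarges the cell and its ribosome pool. The data are mRNA levels and hold no measure of translation.

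The tract at annotated transcription starts is shown because Torin acts on the pathway that reads it. The windows span the 15 bases before and the first 15 bases of the transcript on build GRCm38.p6 (RefSeq), and capitals mark a C and the pyrimidines that follow it. Where a gene had several annotated starts, the start with the longest run is shown, as for Rpl35a (3 starts) and Rps27l (2 starts).
Rpl38 (chr11:114668565-114668594, plus strand): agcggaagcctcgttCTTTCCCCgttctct
Rpl35a (chr16:33056467-33056496, plus strand): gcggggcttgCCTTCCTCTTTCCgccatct
Rps27 (chr3:90213634-90213663, minus strand): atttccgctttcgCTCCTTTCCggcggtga
Rpl13a (chr7:45128731-45128760, minus strand): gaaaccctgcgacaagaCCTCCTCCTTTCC
Rpl12 (chr2:32961697-32961726, plus strand): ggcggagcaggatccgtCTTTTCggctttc
Rps27l (chr9:66946071-66946100, plus strand): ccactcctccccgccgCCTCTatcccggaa
Rpl39l (chr16:10170213-10170242, plus strand): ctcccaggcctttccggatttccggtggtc
Rpl38, Rpl35a, Rps27 and Rpl13a show long runs, of 8, 13, 9 and 14 letters, the last letter of the Rpl13a run lying beyond its window. Rpl12 and Rps27l show short runs of 6 and 5 letters, and no run met the search at the Rpl39l start. RefSeq starts were matched for 63 of the 83 members. A C followed by at least 4 C or T letters, beginning within 5 bases of an annotated start on the transcribed strand, was found in 29 of them (46.03%), against 21.2% of all 27025 genes in the promoter table. A run of at least 8 letters was found in 21 members (33.3%) and in 5.17% of all genes. Other short motifs were searched on both strands in the 250 bases before and 50 after the start. There CCGGAAG, a form of sites for ETS-family factors, was present in 41.3% of members and 9.93% of all genes. AAGATGG, a core of sites for YY1, stood in 15.9% and 7.28%, CACGTG, the E-box bound by MYC, in 9.52% and 8.09%, and TATAAA in 11.1% and 15.7%. These are matches of letters near annotated starts, which can lie several bases from the start in use.

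The libraries held 241865667 to 405884097 estimated counts each. Transcripts that mark CD8 T cells (Cd8a, Cd8b1, Cd3d, Cd3e, Cd3g and Thy1) were present in all 11 libraries, summed on library totals to 4868 to 6557 CPM (counts-per-million scale) in naive, 1481 to 1692 in stimulated and 2643 to 2923 in Torin libraries. Markers of granulocytes, monocytes and B cells were mostly higher in naive libraries, and libraries of 2 replicate numbers stood apart in some of them. The 6 granulocyte markers summed to 9588 and 1811 CPM in the 2 libraries of number 2, 131 to 190.4 in the other naive libraries and 14.8 to 47.1 in the other stimulated and Torin libraries. The 6 monocyte and macrophage markers summed to 2187 CPM in naive 2, 146 to 238 in the other naive libraries and 7.03 to 49.2 in stimulated and Torin libraries, so each naive library was above each of the others. Counts of Igkc, which encodes an antibody light chain, reached 53562, 12675 and 12817 CPM in the naive, stimulated and Torin libraries of number 4, against 8.24 to 22.8 CPM elsewhere. Of other B cell markers, Cd79a and Ms4a1 reached at most 76.1 and 1.56 CPM in any library, and Ighm, an antibody heavy chain, stood at 226 to 447 CPM in naive, 22.6 to 93.4 in stimulated and 25.95 to 88.3 in Torin libraries. In the libraries of numbers other than 4, the 6 B cell markers summed to 251 to 494 CPM in naive and 31.3 to 112 in stimulated and Torin libraries. The part of these transcripts in the comparisons with naive cells was not tested beyond leaving out the libraries of numbers 2 and 4, which leaves the differences between the groups in place. Cd4 reached at most 0.033 CPM.

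Ribosomal protein genes held a larger share of all counts in every stimulated and Torin library than in any naive one. The 83 genes held 13.6, 14.7, 17.5 and 14.7% of counts in naive libraries, 18.2, 20.2, 21.9 and 19.2% in stimulated libraries and 23.9, 24.8 and 20.8% in Torin libraries. Beyond this separation from naive cells, 2 of the 3 Torin libraries were above each stimulated one. Group means were 15.1 ± 1.67% (SD, n = 4), 19.9 ± 1.59% (n = 4) and 23.2 ± 2.14% (n = 3). Large-subunit genes gave 0.975 to 1.103 times the counts of small-subunit genes in naive libraries, 1.13 to 1.14 times in stimulated and 1.11 to 1.13 times in Torin libraries. The naive libraries lay lowest in this ratio without overlap and spread the most. Mitochondrial genes held 1.87 to 2.63%, 1.63 to 2.71% and 1.47 to 2.78% of counts in the 3 groups, which overlapped. All values are relative to the rest of a library: the number of ribosomal protein mRNAs per cell was not measured, and in these bulk samples fewer cells of a type and less RNA per cell cannot be told apart.

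**Figure D1:**
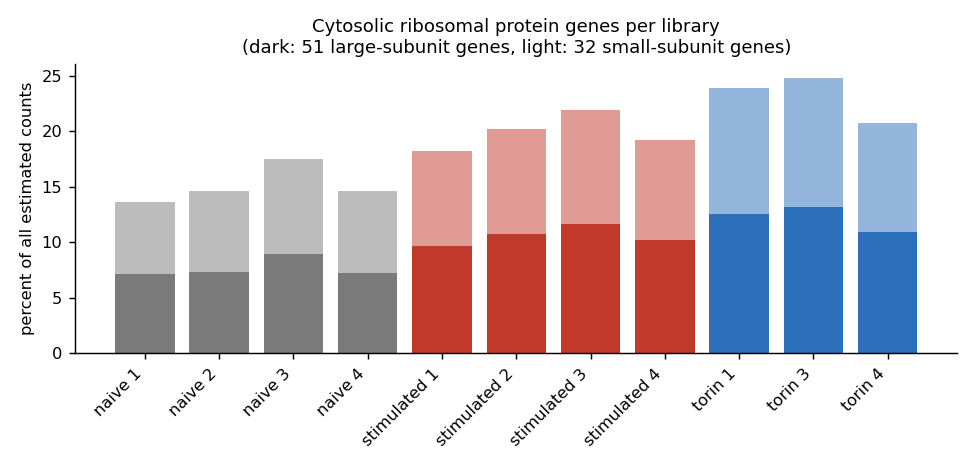
Share of all estimated counts (percent, vertical axis) from ribosomal protein genes in each of the 11 libraries, with the 51 large-subunit genes in the dark part of a bar and the 32 small-subunit genes in the light part. The naive libraries lie between 13.6 and 17.5%, all below the stimulated and Torin libraries.

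Under the first scaling used, most ribosomal protein genes were higher in both peptide-treated groups than in naive cells, and the number called depended on the scaling. This was TMM, which assumes that most genes do not change between libraries and corrects for a few abundant ones. Of the 82 members tested (Rpl10l had 0 counts in each library), 67 were higher and 1 was lower in stimulated than in naive cells at an adjusted p under 0.05 (edgeR quasi-likelihood test, Benjamini-Hochberg over all genes). Of all 22238 genes tested, 19.2% were higher and 20.2% lower. The median log2 change was 0.88 over the members and -0.22 over all genes. In Torin against naive cells 78 members were higher and 0 lower (all genes 16.4% and 15.8%), with medians of 1.07 and -0.18. In Torin against stimulated cells 6 members were higher and 2 lower (all genes 2.32% and 2.3%), with medians of 0.15 and -0.024. Without the 5 libraries of numbers 2 and 4 these counts were 37 higher and 0 lower on stimulation (all genes 11.8% and 10.1%), 48 and 0 for Torin against naive (all genes 8.98% and 8.26%), and 0 and 0 for Torin against stimulated (all genes 0% and 0%), where 10 and 2 had an unadjusted p under 0.05. Of the members named by rule, 12 then missed the threshold on stimulation, with log2 changes still above 0: Rpl11 (0.82), Rpl12 (0.99), Rpl14 (0.53), Rpl18 (0.52), Rpl21 (0.59), Rpl7 (0.69), Rplp0 (0.72), Rplp1 (1.37), Rps18 (0.82), Rps24 (1.22), Rps4x (0.68) and Rpsa (0.89). For Torin against naive 13 did: Rpl11 (1.08), Rpl13a (0.65), Rpl18 (0.84), Rpl21 (0.92), Rpl32 (1.28), Rpl39l (2.101), Rpl7 (0.95), Rplp1 (1.14), Rplp2 (1.53), Rps24 (1.12), Rps4x (1.08), Rps6 (0.89) and Rps9 (0.83). With all libraries, both edgeR and DESeq2 called 0 members lower in Torin than in naive cells (all genes in DESeq2 21.6%), and 0 were lower at an unadjusted p under 0.05.

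The TMM factors, by which library totals are multiplied, were 1.13 to 1.35 in naive, 0.727 to 0.963 in stimulated and 0.939 to 0.976 in Torin libraries. Leaving them out raises naive values against the rest. With library totals alone, 44 members were higher and 5 lower on stimulation (all genes 11.7% and 29.3%), with a median of 0.39. The median of all genes moved with it, from -0.22 to -0.71. Relative to the median gene, the members' median lay 1.11 higher under TMM and 1.09 higher under library totals on the log2 scale. DESeq2 size factors, upper-quartile factors and TMM computed without the members gave 68, 72 and 67 members higher (all genes 19.5%, 22% and 19.3%). Their medians were 0.89, 1.05 and 0.89. After a trend with the GC content and length of genes was removed from each library, 52 members were higher and 7 lower (all genes 18.6% and 20.5%), with a median of 0.55, which was 0.81 above that of all genes.

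One gene shows the size of this choice. Rpl13a stood at 1708, 1625, 2207 and 1664 CPM across naive libraries, 1552, 1848, 1985 and 1446 across stimulated ones and 2632, 3001 and 2241 across Torin ones under TMM. On library totals the same counts gave 2307, 1843, 2665 and 1899 in naive, 1495, 1622, 1444 and 1284 in stimulated and 2472, 2841 and 2187 CPM in Torin libraries. On the first scale the stimulated and naive ranges overlapped, and on the second each stimulated library was below each naive one.

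For Torin against stimulated cells, library totals gave 20 members higher and 2 lower (all genes 3.23% and 1.55%), and for Torin against naive cells 70 and 0 (all genes 10.3% and 20.5%). The Torin against stimulated count also rested on single libraries. In edgeR it fell to 0 in both directions without Torin 1 (20 higher and 9 lower at an unadjusted p under 0.05) or without Torin 3 (16 and 7). It was 17 higher and 7 lower in DESeq2 with all libraries (all genes 5.98% and 7.97%), so that the share lower was near that of all genes. With the replicate number as a block it was 11 higher and 2 lower (all genes 2.37% and 1.97%), adding Rpl12, Rpl13a, Rps9 and Rpsa among others (0.57, 0.62, 0.58 and 0.55). Over the members, deviations from group means in Torin and stimulated libraries correlated at -0.22 and -0.35 in numbers 1 and 3. In number 4 they correlated at 0.86, so the pairing behind the block is uncertain for these genes. On stimulation the block gave 71 higher and 2 lower (all genes 19.7% and 21.5%).

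**Figure D2:**
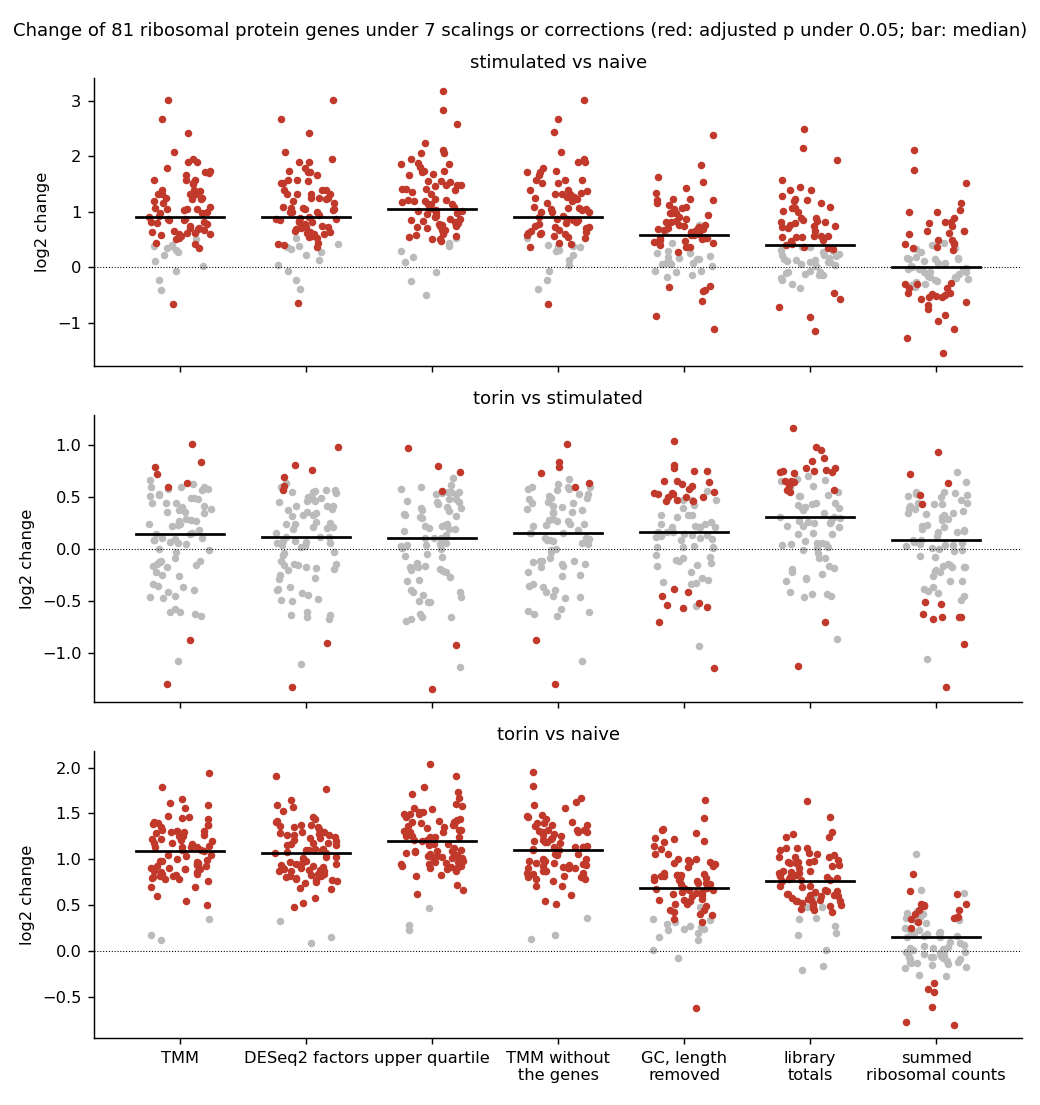
Log2 change (vertical axis) of 81 ribosomal protein genes in each comparison under 7 scalings or corrections (horizontal axis); Rpl3l and Rpl10l are left out, red points had an adjusted p under 0.05 and bars are medians over the 81 genes. Both comparisons with naive cells have medians above 0 in the first 6 columns, and scaling to the summed ribosomal counts places the median of stimulated against naive near 0 by construction.

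Scaled to the summed counts of the members themselves, which removes the shared rise and shows each gene against its own family, 24 members were higher and 21 lower on stimulation (all genes 6.74% and 37.3%). In Torin against stimulated cells 5 were higher and 9 lower (all genes 0.702% and 1.26%), and against naive cells 16 and 6 (all genes 3.01% and 34%). The family did not move as 1 block. On stimulation, 24 members were higher under each of the 7 scalings or corrections, among them Rpl10, Rpl22, Rpl23, Rpl26, Rpl27, Rpl30, Rpl31, Rpl34, Rpl35a, Rpl36a, Rpl37, Rpl38, Rpl39, Rpl39l, Rpl41, Rplp2, Rps12, Rps13, Rps15a, Rps21, Rps25, Rps27a and Rps27l. A further 12 were called higher under one of them and lower under another, among them Rps6 and Rps18. Each of these cases involves the scaling to the family, which sets the change of its sum to 0, or the GC and length correction: over the 5 scalings that use all genes, 44 members were higher in all and 0 were called both ways. In Torin against stimulated cells Rpl10a was among those higher, and Rpl38 and Rps27l were lower, under all 7. For Torin against naive cells 16 members were higher under all 7, and Rpl13a and Rps9 were among those called both ways. Over the 5 scalings that use all genes 70 were higher in all and 0 were called both ways.

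**Figure D3:**
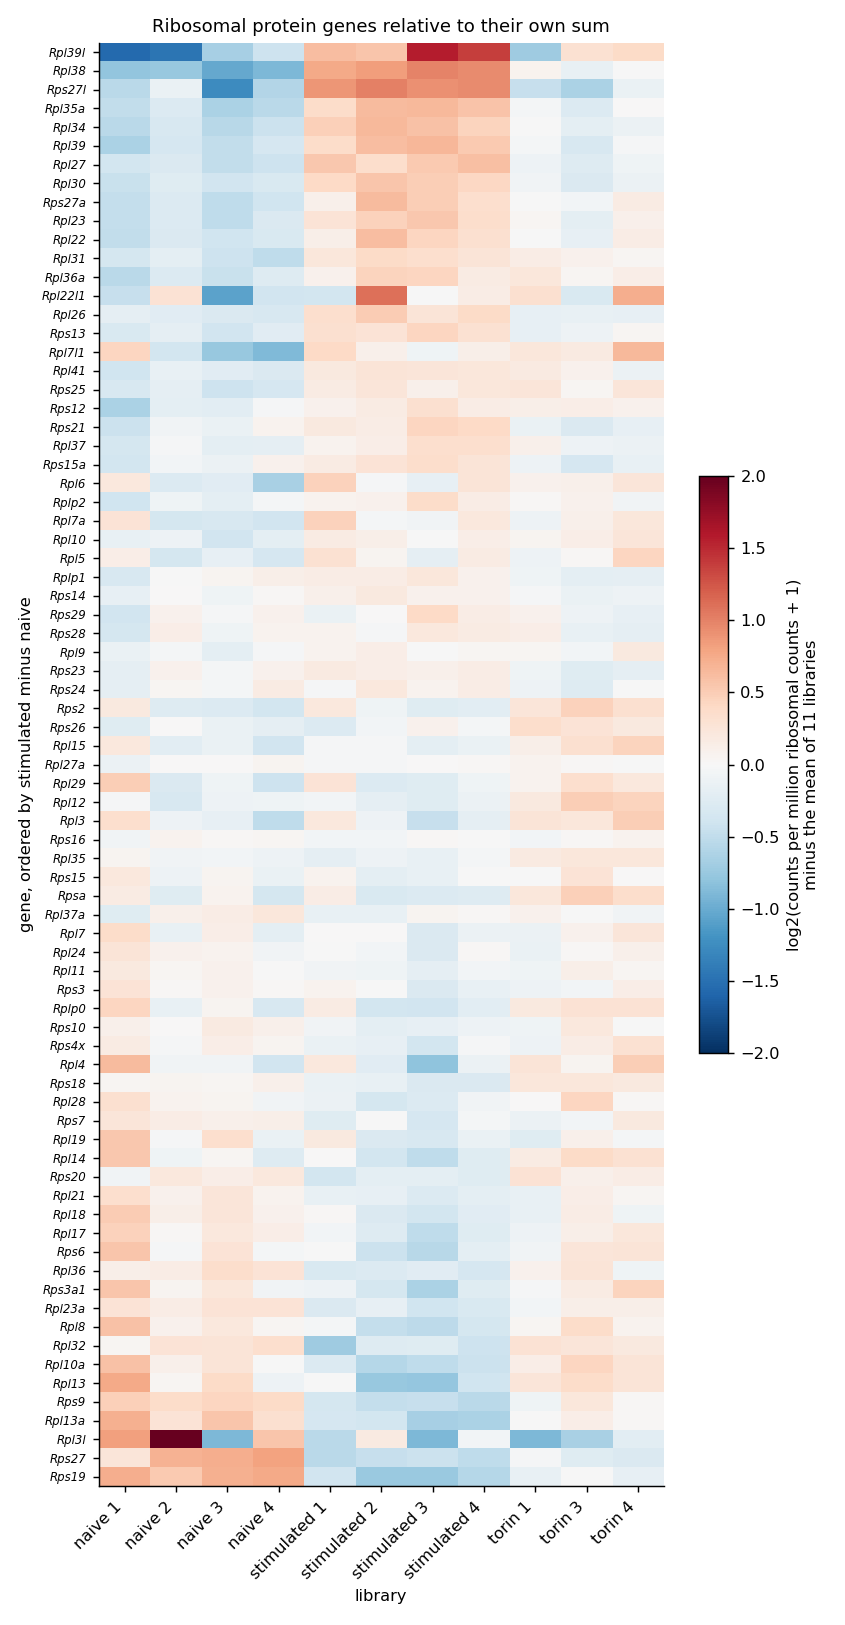
Each row is 1 of the ribosomal protein genes shown and each column 1 library; colour gives log2 of the gene's share of ribosomal counts, scaled as CPM with 1 added, minus its mean over the 11 libraries, ordered from the largest to the smallest difference of stimulated minus naive. The upper rows (Rpl39l, Rpl38, Rps27l) are blue (below the mean) in naive and red (above it) in stimulated libraries, the lowest rows (Rps19, Rps27) are the reverse, and Torin libraries lie mostly between.

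Rpl38, a large-subunit protein known for its part in translating Hox mRNAs, had the largest change on stimulation of any member but the low-level Rpl39l. Its level was 1017, 1331, 1246 and 1199.9 CPM (TMM scale) in naive libraries, 5583, 7163, 10440.2 and 7270.1 in stimulated libraries and 4656, 4136 and 3662 in Torin libraries. No library of one group overlapped another group. The log2 change was 2.67 ± 0.20 (SE; adjusted p = 7.77e-06) on stimulation and -0.88 ± 0.20 (adjusted p = 0.0388) from stimulated to Torin cells. The Torin value missed the threshold in 15 of 28 alternative fits, among them the replicate block (adjusted p = 0.0606), with log2 changes from -0.998 to -0.70. Rpl35a, with the 13-letter run shown above, rose from 1028 ± 165 (SD, n = 4) to 3959 ± 1082 CPM (n = 4; log2 change 1.95 ± 0.20, adjusted p = 3.50e-05) and stood at 2564 ± 207 CPM with Torin (n = 3). Rpl34, Rpl39, a short protein of the exit tunnel, and Rps27a, which is made as a fusion with ubiquitin, rose by 1.901, 1.901 and 1.73 on stimulation. Within the family, Rpl34 and Rpl39 were lower in Torin than in stimulated cells (-0.65 ± 0.11 and -0.67 ± 0.13, adjusted p = 0.0174 and 0.0319).

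Rps19, the small-subunit protein most often mutated in Diamond-Blackfan anaemia, had 4507, 5037, 6451 and 5859 CPM across naive libraries, 3942, 3739, 4879 and 3967 across stimulated ones and 6237, 7091 and 5159 across Torin ones. The stimulated range overlapped the naive one through stimulated 3 and naive 1. Its change on stimulation was -0.40 ± 0.16 under TMM (adjusted p = 0.0639), -0.89 with library totals (adjusted p = 2.64e-04), -0.40 with the replicate block (adjusted p = 0.0302) and -1.28 ± 0.11 within the family (adjusted p = 2.00e-05). Rps27, Rpl13a and Rps9 had TMM changes of -0.23, -0.076 and 0.029 on stimulation, none past the threshold. With library totals the same genes fell by 0.73, 0.58 and 0.47 (adjusted p = 0.00706, 0.00855 and 0.0126). After the GC and length correction they fell by 1.12, 0.41 and 0.36 (adjusted p = 2.42e-05, 0.0148 and 0.0264). Rps27 carries a zinc finger, and Rpl13a is known to leave the ribosome in the interferon response of myeloid cells. Their start windows hold the long runs printed above.

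**Figure D4:**
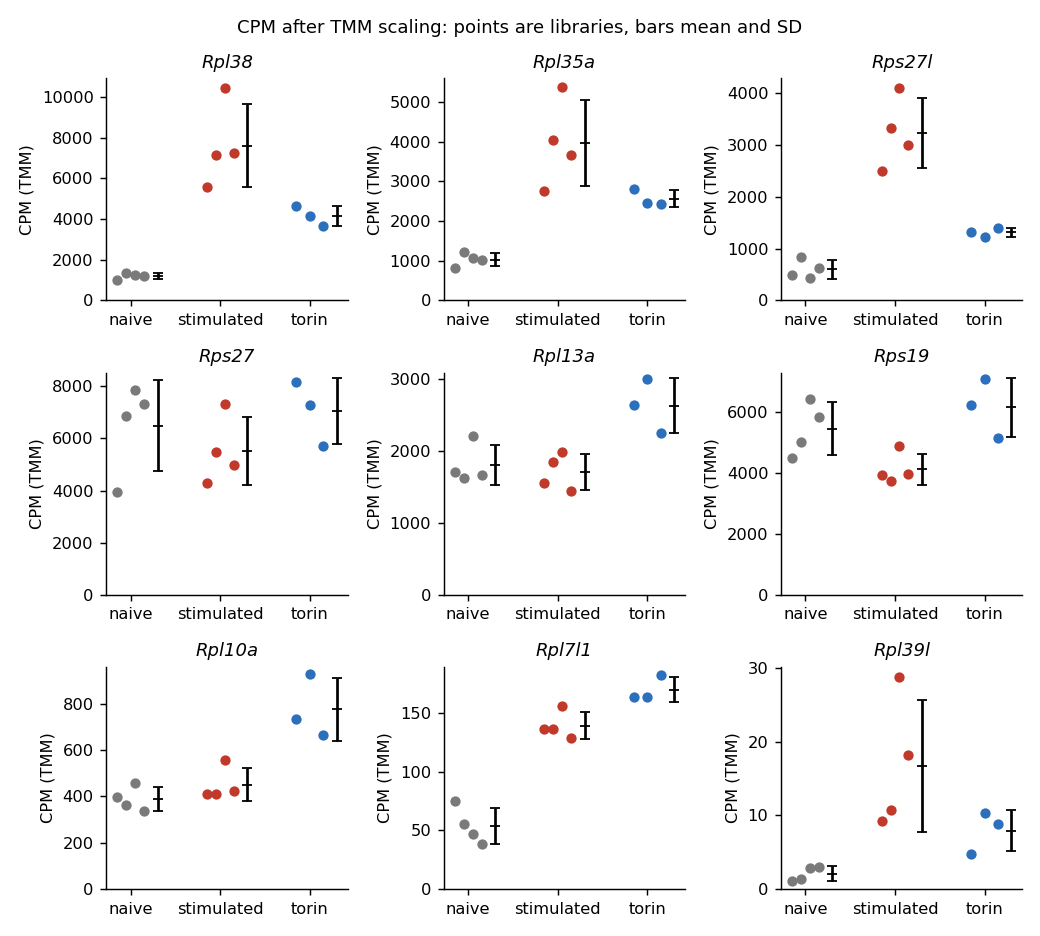
CPM after TMM scaling (vertical axes from 0) of 9 ribosomal protein genes in naive, stimulated and Torin libraries; points are libraries and bars the mean and SD (n = 4, 4 and 3). Rpl38, Rpl35a and Rps27l have their highest mean in stimulated libraries, Rps19 its lowest there, and Rpl10a its highest in Torin libraries.

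Torin against stimulated cells singled out few members. Rpl10a, a large-subunit protein reported to be missing from some ribosomes of embryonic stem cells, was at 411, 409, 556 and 423 CPM in stimulated and 734, 929 and 666 in Torin libraries, which did not overlap, and at 396, 364, 456 and 336 in naive libraries. The Torin difference was 0.79 ± 0.17 (adjusted p = 0.0293). In protein-coding transcripts alone it was 0.62 (adjusted p = 0.435), while the stimulation change became 1.37 (adjusted p = 0.0139) from 0.21 over the whole gene. Rpl13, Rpl14 and Rps3a1, proteins of both subunits, were also higher with Torin, by 0.84, 0.63 and 0.60 (adjusted p = 0.0339, 0.0428 and 0.0348). Rpl10a, Rpl13, Rpl14 and Rps3a1 all missed the threshold without the libraries of number 2 (log2 changes 0.74, 0.75, 0.60 and 0.59) and without those of number 4 (0.88, 0.96, 0.71 and 0.59). Within the family Rpl32, Rps9 and Rps18 were also higher (0.64, 0.52 and 0.43; adjusted p = 0.0341, 0.0339 and 0.0327). For Torin against naive cells Rpl39l, Rpl38 and Rpl7l1 had the 3 largest rises (1.95 ± 0.49, 1.79 ± 0.20 and 1.66 ± 0.20). Within the family Rpl12 and Rpl36a were higher than in naive cells (0.51 ± 0.12 and 0.51 ± 0.13), and Rps27, Rps19 and Rpl13a lower (-0.81, -0.78 and -0.42).

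By subunit, 26 of 32 small-subunit members and 41 of 50 large-subunit members tested rose on stimulation (all genes 19.2%), with medians of 0.92 and 0.88. The stalk proteins Rplp0, Rplp1 and Rplp2, which recruit translation factors, all rose under TMM, by 0.67 ± 0.15, 1.06 ± 0.22 and 1.26 ± 0.24 (adjusted p = 0.00438, 0.00268 and 0.00146). Against the family, Rplp0 had -0.22 ± 0.18, so that its direction turns with that scaling, and Rplp1 and Rplp2 had 0.18 ± 0.10 and 0.35 ± 0.11. Rpl5 and Rpl11, which with 5S rRNA bind MDM2 when ribosome assembly fails, rose by 1.15 ± 0.12 and 0.71 ± 0.15 (adjusted p = 3.84e-05 and 0.00337), Rpl11 with -0.18 ± 0.098 against the family. Rpl5 stood at 385, 352, 451 and 355 CPM across naive libraries, 814, 836, 926 and 848 across stimulated ones and 829, 926 and 1001 across Torin ones, so stimulated and Torin levels overlapped well above the naive ones. Of the 8 proteins at the polypeptide exit site, 7 rose on stimulation (all genes 19.2%) and 8 were higher in Torin than in naive cells (all genes 16.4%). Between Torin and stimulated cells 0 were called in edgeR (all genes 2.32% higher and 2.3% lower), with 2 higher and 2 lower at an unadjusted p under 0.05. DESeq2 called 1 higher and 1 lower there (all genes 5.98% and 7.97%). Rps6, the S6 kinase substrate used as a read-out of mTOR signalling, was at 919, 786, 1083 and 769 CPM across naive libraries, 1158, 1061, 1262 and 1170.3 across stimulated ones and 1487, 1914 and 1562 across Torin ones. Under TMM its levels were ordered from naive to Torin without overlap except between naive 3 and stimulated 2. The log2 changes were 0.39 ± 0.14 on stimulation (adjusted p = 0.0531) and 0.51 ± 0.15 with Torin (adjusted p = 0.0924), and with the replicate block the first passed (0.40). The stimulation value turned to -0.11 with library totals, -0.081 after the GC and length correction and -0.50 against the family, so its direction depends on the scaling. Rps24, a Diamond-Blackfan anaemia gene, Rps4x, which lies on the X chromosome, Rpl41, a very short peptide, and Rpsa, the precursor of the laminin receptor, rose on stimulation by 0.99, 0.63, 1.39 and 0.80 (adjusted p = 0.00175, 0.00488, 3.38e-04 and 0.00317); Rps4x and Rpsa turn to -0.25 and -0.083 against the family. Over the 81 members other than Rpl3l and Rpl10l, changes on stimulation ran from -0.66 to 3.02 under TMM and the middle 50% from 0.59 to 1.33. From stimulated to Torin cells they ran from -1.299 to 1.01, with 50 above 0, and from naive to Torin cells from 0.12 to 1.95, with 81 above 0.

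Compared per length (transcript counts divided by transcript length and scaled to the same sum in each library), mRNA levels differed widely between members. In naive cells Rps27 was first at 19639.9 ± 3840.0 (SD, n = 4), followed by Rps29 at 9467 ± 1589.9 and Rps14 at 9395 ± 1108, and the latter pair did not differ beyond their spread. Rpl38 ranked 17 in naive cells at 3594 ± 449 and 1 in stimulated cells at 14660.0 ± 1419.9, near Rps29 at 12923 ± 2443. Rps19 ranked 4 in naive, 22 in stimulated and 12 in Torin cells. The lowest of the standard members was Rpl5 at 225 ± 50.8 in naive cells, and only the paralogs Rpl7l1, Rpl39l, Rpl3l and Rpl10l lay below it.

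Several members have a paralog thought to take the same place in the ribosome. Rps27l, a p53-responsive copy of Rps27, stood at 499, 845, 437 and 617 CPM across naive libraries, 2495, 3314, 4092 and 3000.0 across stimulated ones and 1320.2, 1214 and 1398 across Torin ones. The 3 groups of levels did not overlap. Its log2 change was 2.43 ± 0.23 on stimulation (adjusted p = 1.93e-05) and -1.299 ± 0.24 from stimulated to Torin (adjusted p = 0.0165), the latter missing the threshold without the libraries of number 4 or without any 1 Torin library (log2 change -1.404 to -1.13 over all alternatives). A ratio of 2 genes in 1 library does not depend on the scaling, and Rps27l counts were 12.7, 12.3, 5.57 and 8.41% of Rps27 counts in naive, 58.4, 60.6, 55.7 and 60.1% in stimulated and 16.2, 16.7 and 24.5% in Torin libraries. The groups of these ratios did not overlap. The exact two-sided permutation p was 0.0286 for stimulated against naive, the smallest 4 against 4 libraries allow, and 0.0571 for Torin against stimulated, the smallest 4 against 3 allow. Adjusted over the 15 ratio tests each became 0.122, so no ratio passed 0.05. With these smallest p-values, no ratio of any comparison could have passed after adjustment, so this outcome was fixed by the design. Nearly all of Rps27's sequence is shared with other genes: 98.6% of its stretches of 50 bases recur there.

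Rpl39l, a copy of Rpl39 known from male germ cells, was low but rose, from 1.01, 1.39, 2.82 and 3.01 CPM in naive to 9.22, 10.7, 28.8 and 18.2 in stimulated libraries, with 4.76, 10.2 and 8.78 in Torin libraries. Stimulated and naive libraries did not overlap (log2 change 3.02 ± 0.48, adjusted p = 4.97e-04), and Torin against stimulated gave -1.08 ± 0.50 (adjusted p = 0.257), called with the replicate block (-1.16). Its parent rose too. Rpl39l counts were 0.187, 0.165, 0.332 and 0.358% of Rpl39 counts in naive, 0.457, 0.364, 0.728 and 0.705% in stimulated and 0.233, 0.587 and 0.507% in Torin libraries. Stimulated shares lay above naive ones by a narrow margin. With 0.5 CPM added, as in the test, the log2 ratio was 0.88 higher on stimulation and the groups overlapped (permutation p = 0.0571, adjusted 0.122). Rpl7l1, a copy of Rpl7 with a part in ribosome assembly, was at 74.7, 54.98, 46.8 and 38.03 CPM across naive libraries, 136, 136, 156 and 128 across stimulated ones and 164, 163 and 182 across Torin ones. It rose by 1.37 ± 0.19 on stimulation (adjusted p = 1.84e-04), and its ratio to Rpl7 went from 13.6, 11.2, 7.001 and 8.07% to 17.1, 14.1, 14.98 and 15.3% (permutation p = 0.0286, adjusted 0.122). Rpl22l1 rose with its parent Rpl22 (1.57 ± 0.38 and 1.66 ± 0.22; adjusted p = 0.0065 and 1.32e-04), and their ratio overlapped between groups, from 26.9 to 64.8%. Rpl36al lies outside the naming rule and is a copy of Rpl36a. Its counts were 123, 116, 94.9 and 95.98% of those of Rpl36a in naive, 145, 111, 119 and 154% in stimulated and 80.9, 84.0 and 95.2% in Torin libraries, and Torin and stimulated ratios did not overlap (permutation p = 0.0571, adjusted 0.122). The muscle paralog Rpl3l stayed at or below 1.35 CPM, and Rpl10l, a testis paralog, was listed at 0.

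Transcripts annotated as targets of nonsense-mediated decay (NMD) held the smallest part of the summed ribosomal protein counts in stimulated cells, a sum in which Rps19 weighs heavily. Counts in such transcripts, which NMD degrades for an early stop codon, made up 3.16, 2.44, 4.68 and 4.09% of all member counts in naive, 1.802, 1.35, 1.36 and 1.29% in stimulated and 2.58, 2.24 and 2.49% in Torin libraries. The means were 3.59 ± 0.990%, 1.45 ± 0.237% and 2.43 ± 0.176% (SD, n = 4, 4 and 3), with naive and Torin libraries overlapping and stimulated libraries below both. Retained-intron transcripts made up 4.33 to 4.84% in naive, 3.58 to 3.91% in stimulated and 4.13 to 4.54% in Torin libraries. The use of single transcripts was tested with limma on log2 ratios within a gene, and a gene was called with at least 1 transcript past an adjusted p of 0.05 and a shift of at least 5 percentage points. Of 51 members with enough counts in several transcripts, 19 were called on stimulation (all genes 24.8%), 0 in limma for Torin against stimulated (all genes 0.267%; 9 members at an unadjusted p under 0.05, and 0 called by diffSpliceDGE of edgeR) and 4 for Torin against naive (all genes 12.1%). The stimulation count was 4 without the libraries of number 4, 0 without those of numbers 2 and 4 (12 at an unadjusted p under 0.05) and 3 with diffSpliceDGE. With the replicate block it was 13, and that of Torin against naive 0. Transcript shares, and values over coding transcripts alone, rest on how counts were divided between overlapping transcripts, which was not tested. In Rpl10a, transcripts not annotated as protein coding held 66.4, 57.8, 80.2 and 91.3% of counts across naive libraries.

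Rpl12, a large-subunit protein near the stalk, held 31.6, 24.1, 37.3 and 35.8% of its counts in the NMD-annotated Rpl12-201 in naive libraries, 14.3, 6.25, 14.6 and 11.1% in stimulated and 19.997, 22.6 and 15.6% in Torin libraries. The naive shares lay above all others and the Torin shares above all stimulated ones. The stimulation shift of -20.7 percentage points passed (adjusted p = 0.00569), matched by 20.7 points in the protein-coding Rpl12-203 (adjusted p = 0.00533), and the Torin shift of 7.87 points did not (adjusted p = 0.397). Counted over protein-coding transcripts alone, Rpl12 rose by 1.38 on stimulation, against 0.87 over the whole gene. In Rps19 the NMD-annotated Rps19-205 took 18.4, 17.9, 43.5 and 43.6% in naive, 10.9, 9.71, 9.54 and 9.17% in stimulated and 31.6, 16.4 and 29.8% in Torin libraries. Naive 1 and 2 lay far below naive 3 and 4, and each stimulated library was below each library of the other groups (shift -20.99 points, adjusted p = 0.0248). The protein-coding Rps19-202 gained 27.5 points (adjusted p = 0.00367), and the Rps19 change on stimulation over protein-coding transcripts alone was 0.14 (adjusted p = 0.585), opposite in sign to that of the whole gene, neither being past the threshold under TMM.

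**Figure D5:**
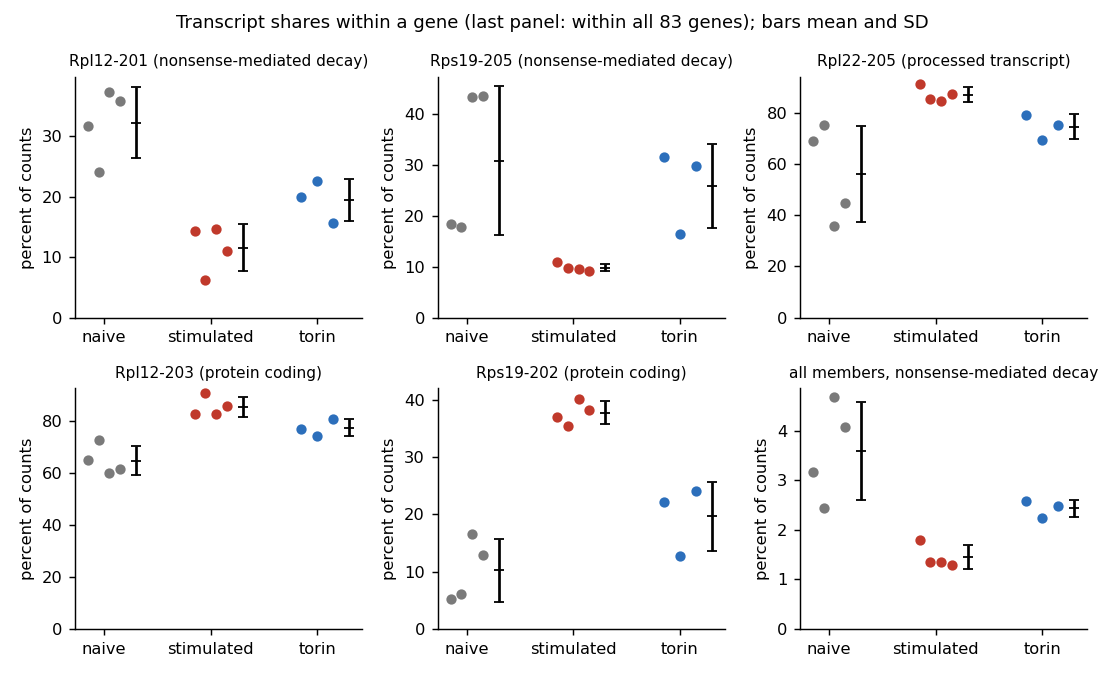
Share of a gene's counts (percent, vertical axes from 0) in named transcripts of Rpl12, Rps19 and Rpl22, and in the last panel the share of all member counts in NMD-annotated transcripts; points are libraries and bars the mean and SD (n = 4, 4 and 3). NMD-annotated shares are lowest in stimulated libraries in all 3 panels that show them, the last of which includes the counts of Rpl12 and Rps19.

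Among called members the largest shifts on stimulation were in Rpl22, Rpl18 and Rps19. In Rpl22, the large-subunit protein that restrains its own paralog, the protein-coding Rpl22-208 went from 23.5, 18.96, 51.5 and 42.4% in naive to 2.97, 1.81, 0.0555 and 1.901% in stimulated libraries, and stood at 16.6, 23.1 and 16.2% with Torin (stimulation adjusted p = 0.0046). Rpl22-205, annotated as a processed transcript without coding sequence, held 56.1 ± 18.9% (SD, n = 4) in naive and 87.1 ± 2.98% (n = 4) in stimulated cells, and the log2 change of Rpl22, 1.66 over the whole gene, was -0.097 (adjusted p = 0.891) in coding transcripts. In Rpl18, a large-subunit protein, the protein-coding transcript Rpl18-207 held 34.3, 10.6, 9.24 and 10.95% in naive, 40.2, 50.6, 50.6 and 53.2% in stimulated and 40.8, 41.2 and 39.3% in Torin libraries, with naive 1 near the others and the other naive libraries well below. Rpl21-201 and Rpl35a-204 were the other called transcripts with the largest shifts in Torin against naive cells (-10.2 and 10.3 points; adjusted p = 0.0482 and 0.0441).

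Ribosomal proteins that the naming rule does not reach gave mixed values. Rack1, a scaffold on the small subunit, and Rpl36al rose by 1.49 ± 0.14 and 1.85 ± 0.17 on stimulation (adjusted p = 2.21e-05 and 1.99e-05). Fau, which is made as a fusion with a ubiquitin-like protein, had a log2 change of -0.027 ± 0.19 (adjusted p = 0.927). Among 22 other mRNAs known to begin with a TOP tract, 17 were higher and 1 (Eif3f) lower on stimulation (all genes 19.2% and 20.2%). In Torin against stimulated cells 7 were higher and 0 lower (all genes 2.32% and 2.3%). Those 7 calls were lost without the 5 libraries of numbers 2 and 4, where 0 of all 21260 genes were called. The medians of the 22 mRNAs in the 2 comparisons were 1.03 and 0.24, against -0.22 and -0.024 over all genes. Eef1a1, the factor that brings aminoacyl-tRNA to the ribosome, was at 1007, 967, 1259 and 879.7 CPM across naive libraries, 1376, 1253, 1393 and 1233 across stimulated ones and 2256, 2117 and 2266 across Torin ones, the Torin libraries being highest without overlap (0.75 ± 0.14 against stimulated, adjusted p = 0.0161). Eef2, the translocation factor, was also higher with Torin (0.68 ± 0.13, adjusted p = 0.0208). Eef1a1 and Eef2 missed the threshold without number 2 (0.73 and 0.65) and without number 4 (0.73 and 0.73). Tpt1, a TOP mRNA for a small growth-related protein, gave 0.34 ± 0.19 (adjusted p = 0.351). Over the same comparison 6 of 82 ribosomal protein genes were called higher, and the difference between the lists was not tested.

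Regulators of TOP mRNAs and chaperones of ribosomal proteins were read against all genes. Of 15 regulators, 9 rose and 3 fell on stimulation, where 19.2% of all genes were higher and 20.2% lower, so the share that fell was that of all genes. With Torin against stimulated 1 regulator was lower (all genes 2.3%), a call lost without the 5 libraries of numbers 2 and 4, where 0 of all genes were called. Larp1, the TOP-binding protein, rose by 1.46 ± 0.23 (adjusted p = 5.03e-04) and gave -0.057 ± 0.25 with Torin (adjusted p = 0.947). Eif4ebp1, the mTOR-controlled brake on cap binding, went from 136, 196, 77.2 and 121 CPM in naive to 728, 733, 824 and 418 in stimulated libraries and stood at 126, 141 and 141 with Torin. Naive and Torin libraries overlapped below all stimulated libraries (log2 changes 2.35 ± 0.29 and -2.31 ± 0.32, adjusted p = 8.46e-05 and 0.00585). Of 9 chaperones tested, 8 rose on stimulation (all genes 19.2%), with a median of 1.88, and 6 were higher in Torin than in naive cells (all genes 16.4%). Between Torin and stimulated cells 0 were called in edgeR (all genes 2.32% higher and 2.3% lower), with 1 at an unadjusted p under 0.05. DESeq2 called 1 higher there (all genes 5.98%). Grwd1 and Rrs1, which escort Rpl3 and the 5S particle, rose by 2.98 ± 0.40 and 2.38 ± 0.37 (adjusted p = 1.60e-04 and 3.86e-04).

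Measures of sequence moved with these changes. GC content and length were averaged over the transcripts of a gene, weighted by their counts. Across 81 members, the log2 change on stimulation had r = -0.39 with GC content and -0.21 with log2 of length, against -0.12 and -0.17 across 9076 genes. For Torin against stimulated the values were 0.36 and 0.32 across members. After the correction given above, the members kept r = -0.33 with GC content on stimulation and 0.33 for Torin against stimulated, so it left most of this relation among them. Their values with length became 0.14 and 0.25, and for Torin against naive went from 0.038 to 0.51. These correlations describe genes measured in the same libraries, which are not independent. The part of base composition and length in the results was not tested beyond that correction. Ribosomal protein genes also have many processed copies. Of the 83 members, 80 shared at least 1 stretch of 50 bases with another gene and 40 shared over 50% of them, so the counts of single members are uncertain to the extent that reads were split with copies. On library totals, without TMM factors, the 1102 pseudogenes that share such stretches summed to means of 14912, 18209.9 and 21945 CPM in naive, stimulated and Torin libraries. Adding only the 298 pseudogenes named after members, which summed to 5441 to 9762 CPM per library on library totals, left 66 members higher on stimulation. Other copies were not added.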

How the data were processed

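RNA of OT-I CD8+ T cells was sequenced after poly(A) SMARTer ultra-low input preparation, per the labels. The values are estimated counts per gene and transcript as deposited by the authors, in whole numbers. Per the submitters' processing notes, the tools, with roles not given, were DESeq2 1.30.1 under R 4.0.5, StringTie 2.1.0, STAR 2.7.1a and SAMtools 1.9, on build mm39. Totals of 241865667 to 405884097 per library exceed usual read numbers for a reason not given in the sources used here, so no counting interval was computed, and precision comes from the spread between libraries. Symbols and transcript types came from GENCODE M21 by identifier without version (94.1% of genes matched), and start windows from RefSeq on GRCm38.p6, a build other than that of the counts.

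Genes were tested in edgeR 4.0.16 (R 4.3.3) with TMM factors, filterByExpr at a minimum count of 10, which kept 22238 genes, and 1 model of group means over 11 libraries. Adjusted p-values (Benjamini-Hochberg over all genes) under 0.05 were called. CPM values are after TMM factors unless stated, except marker levels, which are on library totals. Paralog ratios used log2 of CPM plus 0.5 and exact two-sided permutation of library labels. Transcript usage used limma 3.58.1 on log2 ratios with a prior of 0.5 CPM in genes of mean CPM of at least 5. DESeq2 1.42.0, 6 other scalings or corrections, other filters, the description prefix, transcript sets and left-out libraries were alternatives. The GC and length correction and the joint removal of libraries of numbers 2 and 4 were chosen after seeing the data. The steps were tested on simulated data.

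The members and lists were chosen with earlier results of these data known. Named genes were the 5 largest rises and falls per comparison among members past the threshold, overall and within the family, the 3 largest usage calls, paralog pairs and fixed genes; Rps3a1, Rps29, Rps14, Eif3f, Grwd1, Rrs1, the genes of the last section and members named in lists across scalings fall outside this rule and were chosen after their values were seen. Some genes that the rule names are not reported here by name or in the plots that name genes, and stay in all fits and counts of members. Deviations from group means over all genes correlated between libraries of the same number at 0.16, 0.23, 0.15 and 0.29 (stimulated and naive, numbers 1 to 4), 0.11, 0.15 and 0.31 (Torin and stimulated) and 0.081, 0.13 and 0.28 (Torin and naive). From these values numbers were taken as pairs in the first 2 comparisons, and blocked values are given where they change a call. The values of the third comparison were close to those of the second, and libraries of different numbers were not compared, so this division is uncertain. The main fit held no block. Over the members alone the values were 0.78, 0.90, 0.91 and 0.37 for stimulated and naive libraries. They were -0.22, -0.35 and 0.86 for Torin and stimulated and -0.49, -0.21 and 0.29 for Torin and naive. Among members, pairing of Torin and stimulated libraries was thus seen in number 4 and not in numbers 1 and 3.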

Additional observations from a re-analysis of the deposited data

Results flagged for a closer look

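Of 78 sets of 4 libraries looked at (naive or stimulated, for 37 members and 2 summed measures), 7 held a library whose gap to the nearest other was over Dixon's critical share of the whole range; chance gives about 1 set in 20. Such patterns are read against that rate. Naive 1 was the low library in 4 of them, at 255 CPM in Rpl22, 451 in Rpl36a, 541 in Rpl39 and 1493 in Rplp2, where the other 3 naive libraries lay from 371 to 393, 689 to 693, 841 to 849.7 and 2379 to 2472 CPM. Naive 1 also had the highest TMM factor, 1.35. Naive 3 was high in Rpl13a, at 2207 CPM, and stimulated 3 in Rpl10a and Rpl18, at 556 and 2780.4 CPM. Stimulated 3 had the lowest TMM factor, 0.727.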

How the results depend on the processing

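Of 3105 alternative values for 111 results of single genes, 2787 kept direction and side of the threshold, 171 lost their call, 70 gained one and 77 changed sign, 44 of these with neither value called. Scaling to the summed member counts, which sets the summed change of the family to 0, gave more of the turned values than any other alternative. On stimulation these were Rpl10a (-0.69), Rpl11 (-0.18), Rpl12 (-0.021), Rpl13 (-0.76), Rpl14 (-0.36), Rpl18 (-0.46), Rpl21 (-0.38), Rpl3 (-0.036), Rpl32 (-0.63), Rpl7 (-0.15), Rplp0 (-0.22), Rps18 (-0.28), Rps4x (-0.25), Rps6 (-0.50), Rps9 (-0.87) and Rpsa (-0.083). For Torin against naive they were Rpl11 (-0.057), Rpl13 (-0.020), Rpl13a (-0.42), Rpl18 (-0.27), Rpl21 (-0.17), Rplp1 (-0.13), Rps19 (-0.78), Rps24 (-0.12), Rps27 (-0.81), Rps6 (-0.067) and Rps9 (-0.35). Library totals turned Rpl10a (-0.29), Rpl13 (-0.38), Rpl18 (-0.065), Rpl32 (-0.23), Rps6 (-0.11) and Rps9 (-0.47) on stimulation, Rpl22l1 (0.15), Rpl36a (0.056), Rpl41 (0.046) and Rplp2 (0.055) for Torin against stimulated, and Rps19 (-0.16) and Rps27 (-0.20) for Torin against naive. The GC and length correction turned Rpl13 (-0.069), Rpl32 (-0.43), Rps6 (-0.081) and Rps9 (-0.36) on stimulation, Rpl22l1 (0.21) and Rpl36a (0.021) for Torin against stimulated, and Rps19 (-0.079) and Rps27 (-0.62) for Torin against naive. A mean CPM of at least 5 turned Rpl13 (-0.0071) and Rps9 (-0.10) on stimulation and Rps27 (-0.045) for Torin against naive, and upper-quartile factors turned Rpl13a (0.086) on stimulation. Coding transcripts alone turned Rpl13a (0.12), Rpl22 (-0.097) and Rps19 (0.14) on stimulation and Rpl22 (0.60) for Torin against stimulated. With numbers left out, Rpl13a (0.060) turned on stimulation without number 4 and Rps27 (0.081) without numbers 2 and 4. For Torin against stimulated, Rpl22l1 (0.35) turned without number 2, Rpl41 (0.020) without number 4 and Rpl22l1 (0.27) and Rpl41 (0.0062) without both, Rpl22l1 (0.35) and Rpl3l (1.31) with the replicate block, Rpl22l1 (0.38) with the description prefix, Rpl22l1 (0.00040) with no filter and Rpl22l1 (0.0088) with only these groups fitted. Leaving out 1 library at a time turned values of Rpl13a (-0.13 to 0.033) and Rps9 (-0.049 to 0.12) on stimulation, of Rpl22l1 (-0.24 to 0.35), Rpl36a (-0.26 to 0.041), Rpl41 (-0.22 to 0.058) and Rplp2 (-0.24 to 0.066) for Torin against stimulated and of Rps27 (-0.062 to 0.36) for Torin against naive. Among ratios, Rpl22l1 to Rpl22 went to 1.74 on stimulation and -0.68 with Torin in coding transcripts. Leaving out 1 library at a time, that ratio ranged from -0.33 to 0.091 on stimulation (above 0 without naive 2). With Torin against stimulated cells, Rpl39l to Rpl39 ranged from -0.59 to 0.032 (above 0 without Torin 1) and Rpl7l1 to Rpl7 from -0.0084 to 0.14 (below 0 without Torin 4).

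Members higher on stimulation numbered 44 with library totals, 24 scaled to the family and 37 without the 5 libraries of numbers 2 and 4. Members lower numbered 5 with library totals, 0 with upper-quartile factors, 21 scaled to the family, 2 at a mean CPM of at least 5, 7 after the GC and length correction, 2 in DESeq2, and 0 without number 4 or without numbers 2 and 4. The median change was 0.39 with library totals, -0.0063 scaled to the family, 1.09 in coding transcripts, 0.55 after the correction and 1.08 without numbers 2 and 4. The change of the summed members was 0.89, and 0.40 with library totals. Usage calls numbered 4 without number 4, 0 without numbers 2 and 4 and 3 with diffSpliceDGE.

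For Torin against stimulated, members higher numbered 20 with library totals, 2 with no filter, 12 at a mean CPM of at least 5, 1 with the description prefix as a block, 22 after the correction, 17 in DESeq2 and 0 without number 2, number 4 or both. Members lower numbered 9 scaled to the family, 1 with no filter, in coding transcripts, without number 2 or with only these groups fitted, 9 after the correction, 7 in DESeq2 and 0 without number 4 or without numbers 2 and 4. Without number 4 there was 1 usage call. For Torin against naive, 16 were higher and 6 lower scaled to the family, 1 was lower after the correction and 48 were higher without numbers 2 and 4. The median was 0.74 with library totals, 0.12 scaled to the family and 0.68 after the correction, and the summed change was 0.95, and 0.62 with library totals. Usage calls numbered 0 with a prior of 0.1 CPM, 2 without number 2, 1 without number 4, 0 without both and 2 with diffSpliceDGE.

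With the replicate number as a block, which pairs libraries of the same number, members higher and lower numbered 71 and 2 on stimulation, 11 and 2 for Torin against stimulated and 78 and 0 for Torin against naive, and usage calls 13, 0 and 0. Torin and naive libraries share numbers without the pairing check being met, though their values were close to those of Torin and stimulated libraries. Torin and stimulated libraries met it over all genes, but over the members alone not in numbers 1 and 3. Leaving out 1 library at a time gave, on stimulation, 62 to 71 higher, 1 to 2 lower, a median of 0.86 to 0.97, a summed change of 0.76 to 0.98 and 14 to 19 usage calls. For Torin against stimulated it gave 0 to 8 higher, 0 to 2 lower, a median of 0.076 to 0.22, a summed change of -0.029 to 0.20 (below 0 without stimulated 1) and 0 to 1 usage calls, and for Torin against naive 66 to 78 higher, 0 lower each time, a median of 0.99 to 1.26, a summed change of 0.85 to 1.05 and 0 to 5 usage calls. The cause of these differences was not tested.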

Other observations

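Further mRNAs with a TOP tract and regulators of the tract, chosen after their values were seen, changed between groups in the fit of all 11 libraries. The calls for Torin against stimulated cells rest on the libraries of numbers 2 and 4. Without number 4, 23 of all 22371 genes were higher in that comparison and 32 lower, and without both numbers 0 were called. Pabpc1, the poly(A)-binding protein, was at 118, 109.7, 145 and 115 CPM across naive libraries, 196, 173, 226 and 199 across stimulated ones and 341, 352 and 316 across Torin ones, with log2 changes in edgeR of 0.70 ± 0.13 (SE) on stimulation and 0.76 ± 0.14 with Torin (adjusted p = 0.00128 and 0.0155). Eif4b, which helps the helicase of translation initiation, had 0.59 ± 0.13 with Torin (adjusted p = 0.0302), and Eef1b2, the exchange factor of Eef1a1, had 0.64 ± 0.15 (adjusted p = 0.035). Gas5, a noncoding host of small nucleolar RNAs, had 0.13 ± 0.22 on stimulation (adjusted p = 0.685) and 0.95 ± 0.23 with Torin (adjusted p = 0.0453). Eif3f, a subunit of an initiation factor, fell by 0.65 on stimulation and was higher with Torin by 0.88 ± 0.19 (adjusted p = 0.0124 and 0.0277). Among regulators, Rptor, the mTORC1 scaffold, fell by 1.45, Eif4ebp2, a relative of Eif4ebp1, by 1.17 and Tia1, an RNA-binding protein of stress granules, by 0.91 on stimulation (adjusted p = 0.0055, 5.15e-04 and 8.06e-04).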
